A study of Mus musculus with 16 samples.

Results

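The 9 genes described here are 8 keratins and the transcription factor Trp63, in the developing epididymis of the mouse. This long coiled tube, in which sperm mature and are stored, is formed by the embryonic Wolffian duct. They were chosen by symbol from the 18193 genes that the array's annotation names with 1 symbol per probe set: Krt8, Krt7, Krt18 and Krt19 as keratins of simple epithelium, and Krt5, Krt14, Krt15, Krt17 and Trp63 as genes of basal and stratified epithelium. Every probe set annotated to exactly 1 of these symbols was used, which gave 17 probe sets of 45037 on the array, 6 for the simple and 11 for the basal genes. A further probe set, shared by Krt17 and Krt14, was not counted.

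Whole epididymides of wild-type male CD-1 mice (an outbred stock) were excised at gestational day (gd) 12, 14, 16 and 18 and at postnatal day (pnd) 2, with 3 arrays at each of the 5 stages. One further array held whole newborn animals of both sexes, 4 male and 4 female, pooled at pnd 0.5, with no strain given in the labels used here. The sample labels call each gd12 and gd14 sample a pool of 3, and the gd16, gd18 and pnd2 samples not pooled. The design text instead describes every sample as both epididymides of a single animal, each animal from its own dam. If the sample labels hold, pooled samples meet unpooled ones in gd16 against gd14 and in gd18 or pnd2 against gd12, where pooling and stage cannot be told apart. RNA went through 2 rounds of amplification before labelling.

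Keratins form the intermediate filaments of epithelial cells, and each filament needs a type I partner and a type II partner. Krt8 (type II) with Krt18 (type I) is the pair found first in embryonic and simple epithelia, with Krt7 (type II) and Krt19 (type I) joining in duct linings. Krt5 (type II) with Krt14 (type I) is the pair of basal cells in stratified and pseudostratified epithelia, and Trp63 encodes p63, the transcription factor needed for stratified epithelium and for basal cells. The adult epididymis is lined by principal cells and by basal cells that lie on the basement membrane, and the basal cells are known to appear after birth.

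The simple pair lies on chromosome 15, as do Krt7 and Krt5, while Krt14, Krt15, Krt17 and Krt19 lie on chromosome 11 and Trp63 on chromosome 16. RefSeq promoter sequences (build GRCm38.p6, 250 bases before to 50 after the annotated start) were found for 5 of the 9 genes. Those of Krt8 and Krt18 are shown because this pair moved together, and that of Krt5 because it is the basal type II keratin whose signal did not follow them. The windows are chr15:102004293-102004592 on the minus strand for Krt8, chr15:102027966-102028265 on the plus strand for Krt18 and chr15:101712856-101713155 on the minus strand for Krt5. Capitals mark matches to the patterns searched, on either strand.
Krt8: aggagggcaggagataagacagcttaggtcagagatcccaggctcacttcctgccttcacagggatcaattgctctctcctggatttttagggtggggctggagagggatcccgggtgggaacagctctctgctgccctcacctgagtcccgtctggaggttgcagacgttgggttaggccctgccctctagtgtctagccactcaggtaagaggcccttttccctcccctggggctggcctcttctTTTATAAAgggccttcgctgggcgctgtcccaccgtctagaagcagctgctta
Krt18: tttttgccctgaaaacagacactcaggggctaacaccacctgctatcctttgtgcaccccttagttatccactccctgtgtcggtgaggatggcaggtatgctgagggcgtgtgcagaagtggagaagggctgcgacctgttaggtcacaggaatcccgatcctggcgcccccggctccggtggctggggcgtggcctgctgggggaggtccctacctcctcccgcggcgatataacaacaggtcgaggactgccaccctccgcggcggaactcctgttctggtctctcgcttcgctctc
Krt5: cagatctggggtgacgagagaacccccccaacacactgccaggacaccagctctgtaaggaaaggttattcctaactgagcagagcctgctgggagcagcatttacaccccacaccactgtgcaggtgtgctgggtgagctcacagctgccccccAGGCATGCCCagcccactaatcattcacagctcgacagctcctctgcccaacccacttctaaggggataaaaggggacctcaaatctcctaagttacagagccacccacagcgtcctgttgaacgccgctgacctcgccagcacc
The pattern TATAAA, present in 13.6% of 32851 promoter windows of the same length, matched Krt8 in 2 overlapping places, at bases 248 and 250 counted from the 5′ end. A p53-family half-site pattern, present in 8.36% of windows, matched Krt5 at base 156. It matched none of the other member promoters found, that of the basal keratin Krt14 among them. The pattern GGGCGG was found in 35.7% of windows and TGANTCA in 7.81%, and neither matched Krt8, Krt18 or Krt5. Krt18 held no match to any of these patterns in this window. The matches describe the letters only.

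The deposited signals are on a linear scale, with nearly the same trimmed mean on every array, as scaling by a single factor leaves it. Array medians ran from 110.5 to 133.3 on 14 epididymis arrays, against 81.3 on pnd2 replicate 3. That array also had a 3′ to 5′ signal ratio of 63.2 for Gapdh and 80.7 for Actb, against at most 7.18 and 4.14 on the other 14 arrays, and its mean correlation with its stage mates was 0.829. Steroidogenic cell markers summed to 2044 on gd14 replicate 10 and 3869 on gd16 replicate 9, against at most 713 on the other 13 epididymis arrays. Values without pnd2 replicate 3 are given where it changed a member's call or moved the count of a list by over 1.5 times. A summed list of Wolffian duct and epididymis markers (7 of 9 genes on the array) lay between 4997 and 22418 from gd14 on, against 773 to 4023 at gd12. Adgrg2 and Cdh16 made up most of that sum from gd14 on. Pax8, Lhx1, Gata3, Ret and Cdh16 overlapped between gd12 and gd14. Adgrg2 and Ehf lay above gd12 on every gd14 array, as 21.5% of all tested probe sets did. Germ cell markers summed to 13368 to 20854 at gd12 and gonad supporting cell markers to 3908 to 7119, against at most 1505 and 808 on any array from gd14 on, so gonad transcripts were present in the gd12 samples. In whole organs, fewer cells of a type and less RNA per cell cannot be told apart.

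Simple epithelium keratins were well measured at every stage and higher from gd14 on. All 6 of their probe sets lay at or above the median of their own array on all 15 epididymis arrays. Krt8, measured by 3 probe sets, is described here by its brightest, 1420647_a_at. Its signal was 1561, 803 and 1755 at gd12, 3744, 3478 and 3175 at gd14, 2134, 3027 and 2221 at gd16, 3742, 3524 and 3707 at gd18, and 4962, 6507 and 5931 at pnd2. The 3 arrays of gd12 lay below all 12 later arrays, the 3 of pnd2 lay above all earlier ones, and gd14 lay above gd16 without overlap. The other 2 probe sets of Krt8 also had gd12 lowest and pnd2 highest, and they differed in whether gd18 or gd14 came second.

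Krt18, the type I partner, had a signal of 937, 462 and 919 at gd12, 2365, 2852 and 2046 at gd14, 1919, 2362 and 1829 at gd16, 2511, 2430 and 2496 at gd18, and 3496, 4518 and 2179 at pnd2. Its stages stood in the order pnd2, gd18, gd14, gd16 and gd12, as for 2 of the 3 Krt8 probe sets, and of neighbours in that order gd16 and gd12 did not overlap. On gd12 replicate 14 both Krt8 and Krt18 had their lowest signal of all arrays, and so did the sum of the Wolffian duct markers. That sum was low mostly through Cdh16, at 165 against 1637 and 2965 on the other gd12 arrays. Single epithelial genes went both ways. Pax8 (39.2) and Cldn7 (109) were lowest of the gd12 arrays on replicate 14, while Lhx1 (327) and Epcam (3530) were highest. The part of this array in the results was not tested apart from leaving it out.

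**Figure D1:**
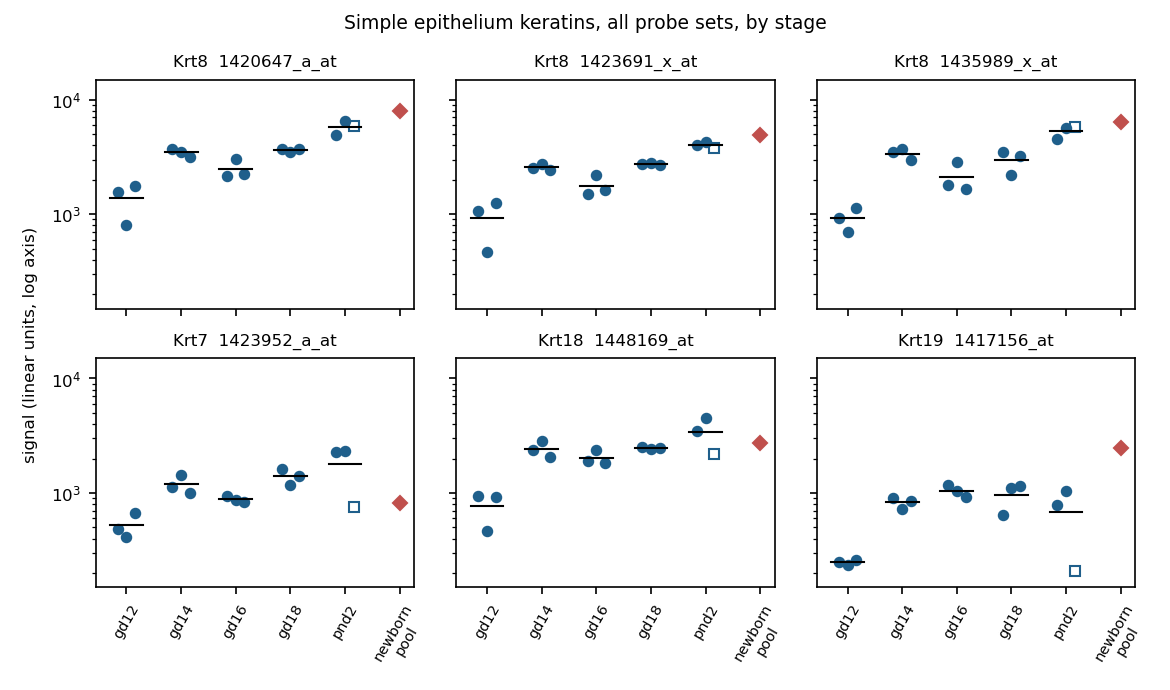
Signal of the 6 probe sets of the simple epithelium keratins on each array, on a log axis, by stage, with the newborn pool at the right. Filled circles are single arrays, the open square is pnd2 replicate 3, black lines are stage means of 3 arrays and the red diamond is the 1 pool array. Every gd12 array lies below every gd14 array in all 6 panels.

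Krt7, the type II keratin of duct linings, had a signal of 483, 411 and 669 at gd12, 1133, 1446 and 1002 at gd14, 943, 870 and 837 at gd16, 1613, 1173 and 1402 at gd18, and 2258, 2330 and 758 at pnd2. The lowest pnd2 value is that of replicate 3, and the other pnd2 arrays lay above all earlier ones. Krt19, a type I keratin that lacks the usual tail domain, had a signal of 250.2, 234.3 and 262 at gd12, 903, 727 and 848 at gd14, 1169, 1047 and 916 at gd16, 645, 1115 and 1142 at gd18, and 785, 1036 and 207 at pnd2. Its gd12 arrays were close together and lay below all 9 arrays of gd14, gd16 and gd18, while pnd2 replicate 3 lay below gd12. Unlike Krt8 and Krt18, Krt19 had its highest stage mean at gd16, and from gd14 on its stages overlapped except that gd16 lay above gd14.

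Between gd12 and gd14 all 6 probe sets of the simple keratins rose. In each, the 3 gd14 arrays lay above the 3 gd12 arrays, as they also did for Krt14 1423935_x_at and for 21.5% of all tested probe sets. The 9 tested probe sets came from 7 of the 9 genes, with 3 from Krt8 and none from Krt15 or Krt17. Of these 9, 6 were called higher at gd14 than at gd12 (limma, Benjamini-Hochberg adjusted over 25981 probe sets, adjusted p under 0.05). Of all tested probe sets, 5.08% were called higher and 8.72% called in either direction. With only the brightest probe set per gene, 4 of 7 were called, against 6.01% of genes called higher in the main fit. Krt8 averaged 3466 ± 285 at gd14 and 1373 ± 503 at gd12 (SD, n = 3 each), a log2 change of 1.40 ± 0.24 (SE, limma adjusted p = 0.0021) on the scale of log2(signal + 16). Its other probe sets gave log2 changes of 1.56 ± 0.28 and 1.88 ± 0.24. Krt18 averaged 2421 ± 406 at gd14 and 772.9 ± 269 at gd12, a log2 change of 1.68 ± 0.28 (limma adjusted p = 0.0017).

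Without pnd2 replicate 3, 7 of the 9 probe sets were called at gd14 against gd12, with Krt14 added, and without the 3 arrays that stood apart (pnd2 replicate 3, gd14 replicate 10 and gd16 replicate 9) 6 were. The 4 calls for Krt8 and Krt18 were also made in each of the 15 fits that left out 1 array. Krt19 rose by 1.67 ± 0.42 on the log2 scale (limma adjusted p = 0.023), and the call was lost in 6 of those 15 fits, those without any 1 of the gd12 or gd14 arrays, with adjusted p up to 0.084. Krt7 rose by 1.18 ± 0.34 (limma adjusted p = 0.046). The Krt7 call was lost in 11 of the 15 fits, with adjusted p up to 0.176, and also when no probe set was filtered out (adjusted p = 0.059).

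Mesothelium, the outer lining of the organ, is another cell type known to express these simple keratins. Its 7 markers, all tested, summed to 4495 to 4803 at gd14, against 3309 to 3579 at gd12, with 2 called higher and none lower (limma; 4 higher and 1 lower at an unadjusted p under 0.05), and 4 and 1 called without pnd2 replicate 3. At gd14 against gd12, 6.01% of all genes were called higher and 4.95% lower. Wt1 alone gave 1944, 1646 and 1719 of the gd12 sums, in samples where gonad transcripts were present. The part of gonad cells in these sums was not tested. The mesothelium markers summed to 4900 to 6200 at gd16, 5358 to 6511 at gd18 and 3805 to 5070 at pnd2. For pnd2 against gd12, 3 were called higher (Msln, Upk1b and Gpm6a) and 2 lower (Wt1 and Lrrn4), where 13.5% and 11.6% of genes were. Msln passed the filter on 8 arrays, none of gd12 or gd14, so its being tested is bound to its higher signal at later stages. The part of mesothelium in the keratin signal was not tested.

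After gd14 no simple keratin was called between consecutive stages. At gd16 against gd14, none of the 9 tested probe sets was called, with 1 at an unadjusted p under 0.05, and 0.0616% of all tested probe sets were called. The gd16 arrays lay below the gd14 arrays without overlap for 4 of the 9 (the 3 of Krt8 and that of Krt7), as they did for 9.95% of all. The 3 Krt8 probe sets differed by -0.51, -0.54 and -0.72 on the log2 scale, the last with an unadjusted p of 0.010 and an adjusted p of 0.64 in limma. At gd18 against gd16, none of the 9 was called, with 2 at an unadjusted p under 0.05, and 0.142% of all were called. For 4 of the 9 (2 of Krt8, Krt7 and Krt18) the gd18 arrays lay above the gd16 arrays without overlap, as they did for 9.74% of all. The Krt8 differences there were 0.59, 0.64 and 0.51, and that of Krt7 was 0.64.

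Against gd12, the simple keratins were higher at gd18 and, but for Krt19, at pnd2. At gd18 against gd12, 7 of the 9 tested probe sets were called, all higher, against 9.44% of all probe sets called higher and 16.5% in either direction. The 6 simple probe sets had log2 changes from 1.41 for Krt7 to 1.85 for Krt19, and the Krt7 call was lost without gd12 replicate 14 (1.26, adjusted p = 0.055). At pnd2 against gd12, 6 of the 9 were called, all higher, against 10.3% called higher and 21.1% in either direction, and 8 were called without pnd2 replicate 3, with Krt19 and Krt14 (1.49, adjusted p = 0.018) added. Krt8 averaged 5800 ± 781 at pnd2 and 1373 ± 503 at gd12, and its 3 probe sets had log2 changes of 2.13, 2.21 and 2.53, with limma adjusted p of at most 5.8e-05.

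At pnd2 against gd12 Krt18 had a log2 change of 2.12 ± 0.28 (limma adjusted p = 0.00011) and Krt7 of 1.61 ± 0.34 (adjusted p = 0.0042). The Krt7 call was lost when only the 6 arrays compared were fitted (adjusted p = 0.10). Krt19 was not called at pnd2 against gd12, with 676 ± 425 at pnd2 and 249 ± 13.7 at gd12 and a log2 difference of 1.11 ± 0.42 (limma adjusted p = 0.075). Without pnd2 replicate 3 this difference was 1.80 and was called (adjusted p = 1.8e-05). The low Krt19, Krt7 and Krt18 values on that array stand beside its raised 3′ to 5′ ratios, whose part in them was not tested. Krt8 was not low on it. The median log2 change of all tested probe sets was -0.16 at pnd2 against gd18 and -0.14 at pnd2 against gd12, but -0.035 and -0.020 without pnd2 replicate 3, so most of this shift came with that array.

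**Figure D2:**
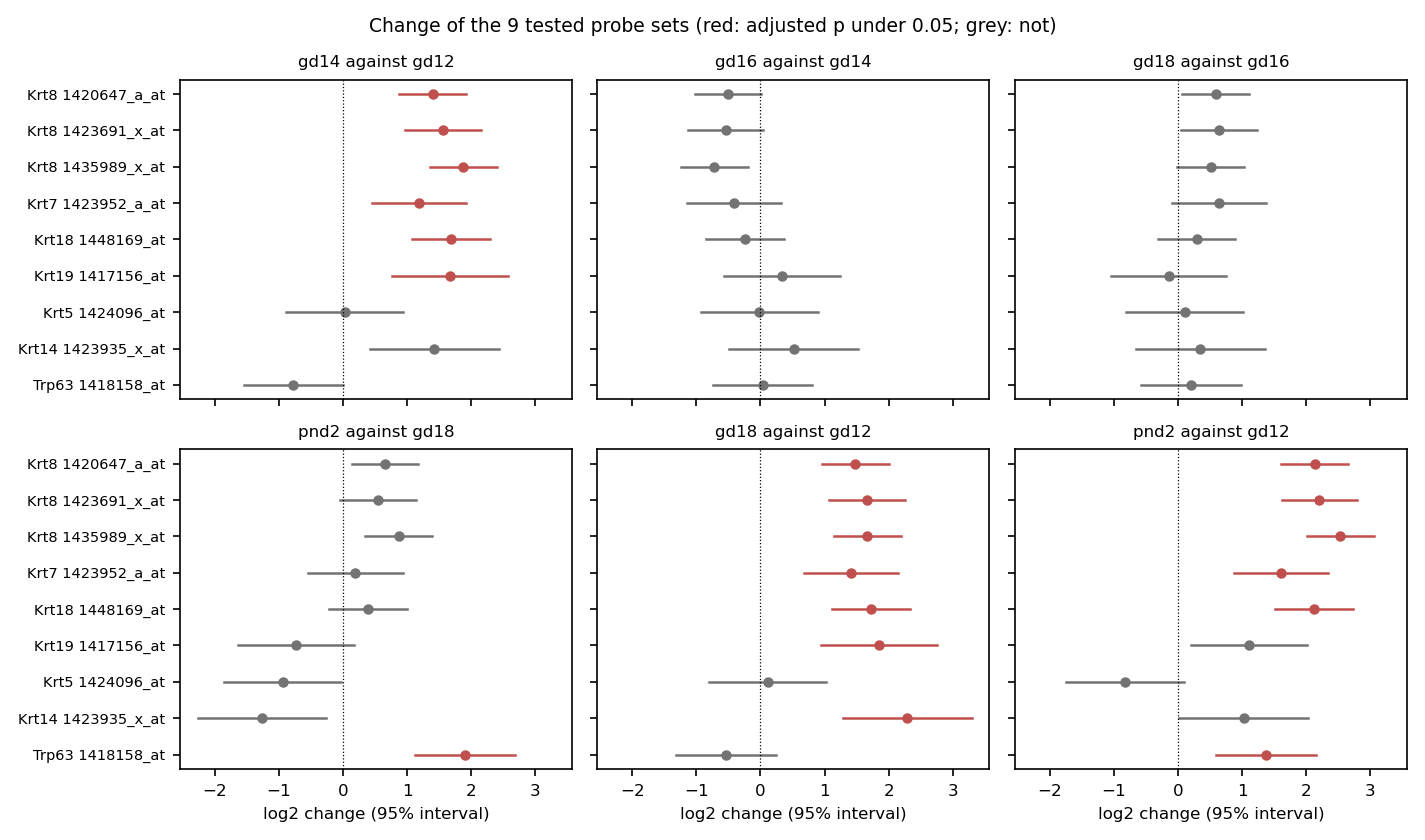
Log2 change, on the scale of log2(signal + 16), of the 9 tested probe sets in 6 comparisons between stages, with 95% intervals from limma and n = 3 arrays per stage. Red marks an adjusted p under 0.05. The simple keratins are called at gd14 against gd12 and in the longer spans, and Trp63 at pnd2 against gd18.

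The basal keratins were low in the epididymis throughout. Of their 11 probe sets with Trp63, 3 passed the filter (at or above the array median on at least 3 of the 15 arrays): Krt5, 1 of 3 for Krt14 and 1 of 4 for Trp63. The 8 others never passed it, and 7 of them were below the array median on all 15 arrays. Krt5, the type II keratin of basal cells, had a signal of 109, 97.1 and 113 at gd12, 132, 67.9 and 139.8 at gd14, 129, 151.5 and 60.9 at gd16, 129, 116 and 105 at gd18, and 66.6, 98.0 and 18.9 at pnd2. These values overlap between all neighbouring stages in order of level, and the highest of them is close to an array median.

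Krt5 was not called in any comparison, nor by the F test for any difference between stages (limma adjusted p = 0.35). Its log2 difference was 0.03 ± 0.43 at gd14 against gd12 and 0.11 ± 0.43 at gd18 against gd12, with 95% intervals from -0.89 to 0.95 and from -0.80 to 1.03. No gd12 or gd18 array reached its array median, and the log2(signal + 16) scale understates changes of such low signals. At pnd2 against gd18 Krt5 lay lower by -0.94 ± 0.43 (adjusted p = 0.23), and by -0.45 without pnd2 replicate 3.

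Krt14, the type I partner of Krt5, gave different pictures by probe set. Probe set 1423935_x_at had a signal of 11.7, 73.9 and 50.6 at gd12, 183, 140.6 and 87.2 at gd14, 182, 179 and 228 at gd16, 186, 230.3 and 373 at gd18, and 139, 138 and 42.7 at pnd2. All arrays of gd14, gd16 and gd18 lay above gd12, where none reached the array median, and pnd2 lay below gd18 without overlap. This probe set passed the filter on 10 arrays, none of gd12, so its being tested is bound to its higher signal at later stages. It was called higher at gd18 than at gd12 by 2.29 ± 0.47 on the log2 scale (limma adjusted p = 0.0037), a call made in all 15 fits that left out 1 array. At gd14 against gd12 its difference of 1.43 ± 0.47 was not called (adjusted p = 0.077), but it was without pnd2 replicate 3 (adjusted p = 0.015).

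The suffix of that Krt14 probe set, shared by 2 of the Krt8 probe sets, marks probes that may cross-hybridise with related sequences. The second Krt14 probe set, 1460347_at, had a signal of 12.7, 7.04 and 86.7 at gd12, 13.3, 14.9 and 68.7 at gd14, 95.2, 118 and 63.4 at gd16, 130, 70.5 and 166 at gd18, and 8.29, 17.2 and 12.98 at pnd2. It reached the array median on 1 array, so it was outside the main test. Its gd18 arrays lay above its pnd2 arrays and overlapped its gd12 arrays. The third, 1455573_at, stayed between 54.0 and 109.7 on all 15 arrays and was at 111 in the newborn pool, below that array's median of 134, so it reported little Krt14 even where the other probe sets were bright.

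Krt15, a type I keratin of basal cells, was between 3.79 and 83.9 over the 15 arrays, with 1 array, gd14 replicate 10, above 15. Krt17, a type I keratin of skin appendages and stressed epithelium, ranged from 2.67 to 63.5 by 1 probe set and from 2.15 to 70.3 by the other. None of these probe sets reached the array median on any epididymis array. No comparison between stages is given for them.

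**Figure D3:**
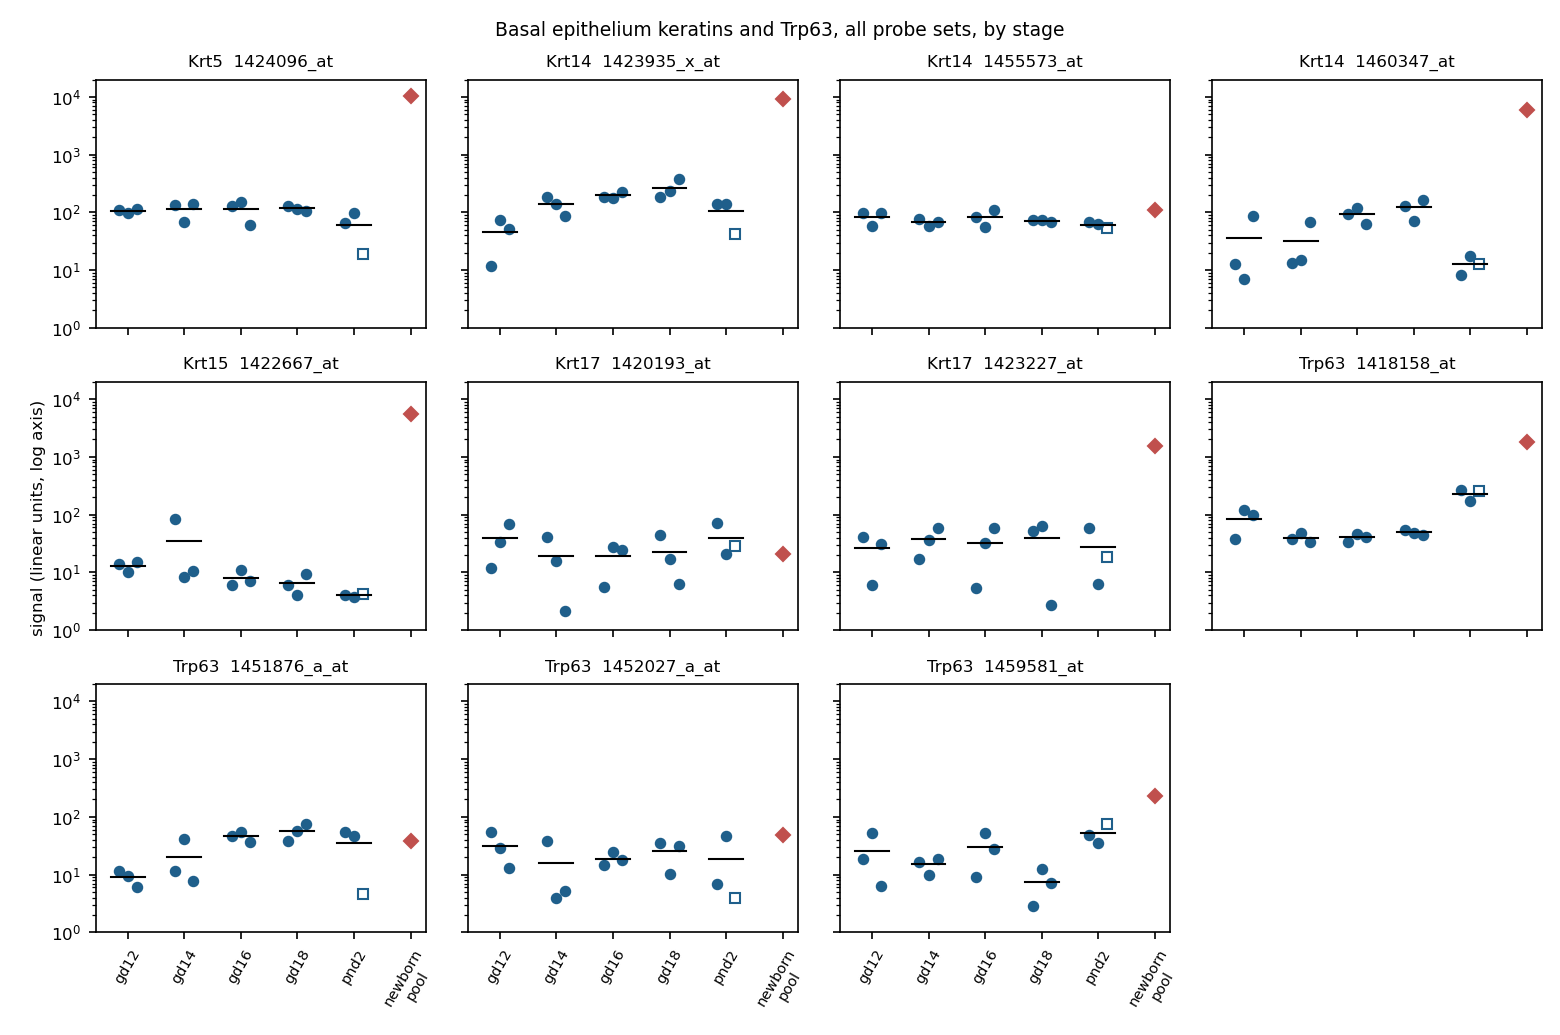
Signal of the 11 probe sets of the basal keratins and Trp63 on each array, on a log axis, by stage, with the newborn pool at the right. Filled circles are single arrays, the open square is pnd2 replicate 3, black lines are stage means of 3 arrays and the red diamond is the 1 pool array. The pool lies at least 6.91 times above the highest epididymis array in 6 of the 11 panels.

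Trp63 was low before birth and higher at pnd2. Its brightest probe set, 1418158_at, had a signal of 37.6, 119 and 98.8 at gd12, 37.2, 48.0 and 33.0 at gd14, 34.1, 46.1 and 41.6 at gd16, 53.9, 48.8 and 44.4 at gd18, and 267, 172 and 252 at pnd2. The 3 pnd2 arrays, replicate 3 among them, lay above all 12 fetal arrays, and the gd14, gd16 and gd18 arrays lay between 33.0 and 53.9, below their array medians. It passed the filter through its 3 pnd2 arrays and 1 gd12 array, so its presence among the tested probe sets is bound to its being high at pnd2.

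At pnd2 against gd18 Trp63 averaged 230.2 ± 51.0 at pnd2 and 49.0 ± 4.78 at gd18 (SD, n = 3 each). The log2 change was 1.90 ± 0.36 (limma adjusted p = 0.037), the only call among the 9 tested probe sets in that comparison, where 0.558% of all probe sets were called and 0.169% called higher. The call sits at the threshold. It was lost in 12 of the 15 fits that left out 1 array, with adjusted p from 0.023 to 0.146, and with no filter (adjusted p = 0.060), while the log2 change stayed between 1.79 and 2.08. Without pnd2 replicate 3 it was 1.83 (adjusted p = 0.055), and with a constant of 1 in place of 16 it was 2.19 (adjusted p = 0.058).

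At pnd2 against gd12 Trp63 had a log2 change of 1.37 ± 0.36 (limma adjusted p = 0.015), and the call was lost without gd12 replicate 13 (0.96, adjusted p = 0.059). It was also lost without the 3 arrays that stood apart (1.30, adjusted p = 0.061) and when only the 6 arrays compared were fitted (adjusted p = 0.126). The gd12 arrays were uneven, with 119 and 98.8 on replicates 14 and 15 and 37.6 on replicate 13. The summed germ cell markers on the same arrays were 20854 and 20367 against 13368, and the gonad supporting cell markers 6849 and 7119 against 3908; their part in the Trp63 signal was not tested. The difference at gd14 against gd12 was -0.77 ± 0.36 (limma adjusted p = 0.23), and -1.18 without gd12 replicate 13 (adjusted p = 0.044).

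A second Trp63 probe set, 1459581_at, never reached the array median. It read 49.0, 35.6 and 75.4 at pnd2, against 2.81, 12.7 and 7.22 at gd18, without overlap between these stages. All these values lie below the array medians, so no size of change is given. The gd12 and gd16 arrays of this probe set spanned 6.44 to 51.7, which overlaps pnd2. The other 2 Trp63 probe sets stayed at or below 75.3 on all arrays and read 38.9 and 48.1 in the newborn pool, below its median, so they carried little Trp63 signal in either tissue.

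The other tested basal genes gave differences of the opposite sign to Trp63 at pnd2 against gd18, and neither was called. Krt5 differed by -0.94 and Krt14 1423935_x_at by -1.26 ± 0.47 (limma adjusted p = 0.18), with both lying below gd18 on all 3 pnd2 arrays. Among the 9 tested probe sets, these 2 had all pnd2 arrays below gd18, as 13.8% of all probe sets did, and 4 (the 3 of Krt8 and that of Trp63) had them all above, as 8.32% did. Without pnd2 replicate 3 the Krt14 difference was -0.80 (adjusted p = 0.38). The contrast between Trp63 and the basal keratins was not itself tested. Over the 5 stages, the F test called 8 of the 9 tested probe sets, all but Krt5, where 20.9% of all tested probe sets were called.

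The newborn pool showed what these probe sets read in tissue with skin and other stratified epithelium. Krt5 was at 10496 in the pool, 69.3 times its highest epididymis array. In the epididymis Krt15 reached at most 83.9, against 5570 in the pool, 66.4 times that array. The pool exceeded the highest epididymis array 25.1 and 35.0 times for the 2 responsive Krt14 probe sets, 24.2 times for Krt17 1423227_at and 6.91 times for Trp63 1418158_at. So 6 of the 11 basal probe sets were bright in the pool and at least 6.91 times lower on every epididymis array. Trp63 1459581_at was at 233 in the pool, 3.09 times its highest epididymis array. For the other 4 (Krt14 1455573_at, Krt17 1420193_at and 2 of Trp63) the pool too was below its own median, so they tell little.

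The simple keratins differed among themselves in how they stood to the pool. Krt8 was at 4962, 6507 and 5931 at pnd2 and at 3742, 3524 and 3707 at gd18, against 7885 in the pool, and no epididymis array exceeded the pool in any of its 3 probe sets. Krt18 exceeded the pool value of 2733 on 3 of 15 arrays, all at gd14 or pnd2. Krt7 exceeded the pool value of 818 on 11 of 15 arrays, all 9 of gd14, gd16 and gd18 and 2 of pnd2. Krt19 was at 785, 1036 and 207 at pnd2 and at 645, 1115 and 1142 at gd18, against 2470 in the pool.

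With 1 pool array there is no replicate check and no test. Of the 17 probe sets, 8 at pnd2 and 9 at gd18 had all 3 arrays at least 2-fold below the pool, where 9.66% and 9.7% of all 45037 probe sets did. None had all 3 arrays at least 2-fold above it at either stage, where 5.96% and 9.82% of all did. At pnd2 the 8 were Krt5, Krt14 by 2 probe sets, Krt15, Krt17, Trp63 by 2 probe sets and Krt19, and at gd18 Krt8 1420647_a_at was added, with a mean log2 difference of -1.11. Without pnd2 replicate 3, Krt7 at pnd2 lay at least 2-fold above the pool.

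**Figure D4:**
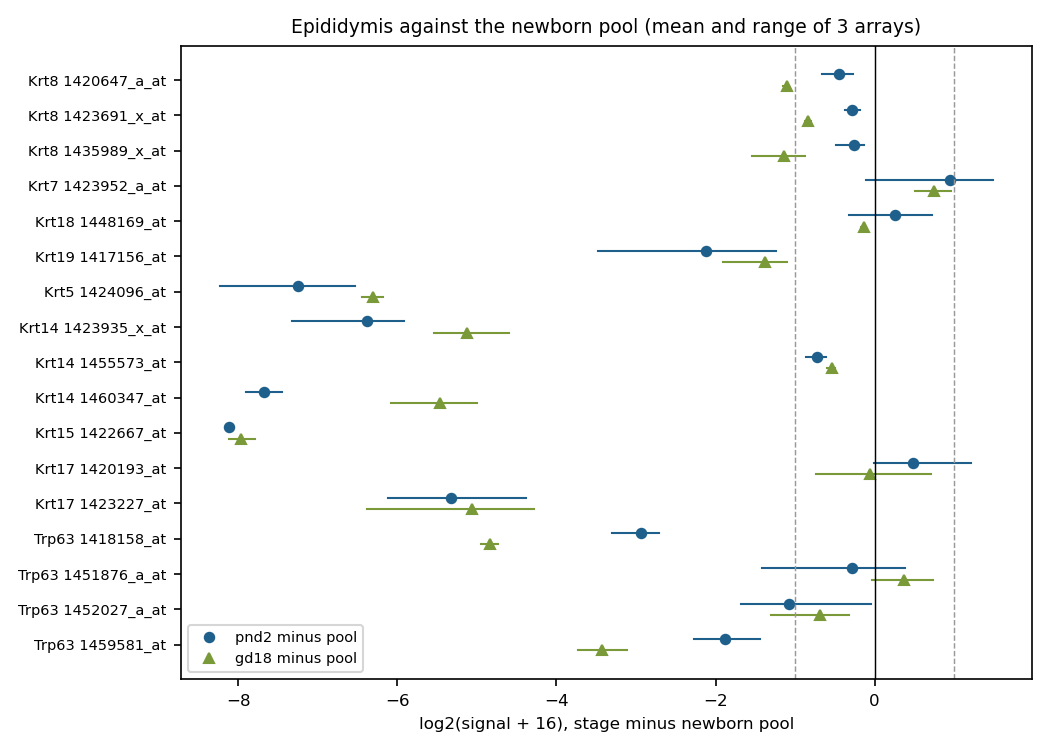
Difference in log2(signal + 16) between epididymis and newborn pool for all 17 probe sets, at pnd2 (circles) and gd18 (triangles). Symbols are means and lines the range of 3 arrays against the 1 pool array, and dashed lines mark 2-fold. Krt5, Krt15, Krt17 1423227_at, 2 Krt14 probe sets and Trp63 1418158_at lie far to the left, and the Krt8, Krt7 and Krt18 probe sets have means between -1.13 and 0.94.

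Markers of epidermis were low in the epididymis. The summed signal of 9 epidermis markers was 1403 to 3910 on the epididymis arrays, against 104542 in the pool, and 3 of the 9 passed the filter. At pnd2 against gd12, 1 of these 3 was called higher (Krt10) and 1 lower, where 13.5% and 11.6% of genes were. The lower was Lor, with a log2 change of -1.81 (limma adjusted p = 0.0036), and Sbsn was not called. Without pnd2 replicate 3, 2 were called higher and 1 lower. The highest sum was that of pnd2 replicate 3, and Krt10, the type I keratin of suprabasal epidermis, accounted for most of it with 2655, against 645 and 765 on the other pnd2 arrays. Krt5 had its lowest signal on this array, and Trp63 was 252 on it, inside the range of the other pnd2 arrays. Urothelium and urogenital sinus markers summed to 6329 to 12201 at pnd2, against 306 to 700 at gd12, most of it from Shh. Of the 4 uroplakins in this list, Upk1b, which is on the mesothelium list too, was at 479, 654 and 478 at pnd2, against 67.6, 82.6 and 132 at gd12, and was called higher at pnd2 than at gd12 (log2 change 2.36). Upk2 was between 21.0 and 162 on all 15 arrays, and Upk1a and Upk3a did not pass the filter. The part of these cells in the keratin signal was not tested.

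Keratins outside these 9 genes were mostly below the filter. Of 40 other keratin genes on the array 6 passed it, namely Krt10, Krt32, Krt42, Krt79, Krt80 and Krt81, and 1 call was made at gd14, gd18 or pnd2 against gd12 or at pnd2 against gd18. Krt10 was called higher at pnd2 than at gd12 by 1.32 ± 0.39 (limma adjusted p = 0.027), and by 0.69 without pnd2 replicate 3 (adjusted p = 0.018). Genes called higher made up 13.5% of the 12239 tested in that comparison. Krt8, Krt18, Krt7 and Krt19 were the keratins with both a signal above the array median on every epididymis array and a called rise between gd12 and gd14.

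Other intermediate filaments were described by 10 tested genes of 13. At gd14 against gd12, 1 was called, higher, where 6.01% of genes were called higher and 4.95% lower, and 3 were called higher without pnd2 replicate 3. The 1 was Lmna, the A-type nuclear lamin, which was at 579, 597 and 567 at gd14, against 226, 111 and 165 at gd12. At gd18 against gd12, 2 were called higher and 1 lower, with a median log2 change of 0.20 against 0.01 for all genes. Lmna had a log2 change of 3.40 ± 0.22 there, Des (desmin, of muscle) was at 282, 352 and 294 at gd18, against 24.4, 17.1 and 69.5 at gd12, and Nefm (a neurofilament) fell by 1.59 on the log2 scale (limma adjusted p = 0.0058). Des passed the filter on 9 arrays, all later than gd12, and its gd12 values lie below the array medians. Its call was lost in 5 of the 15 fits that left out 1 array. Vim, the filament protein of mesenchyme, had a log2 difference of 0.18 at gd18 against gd12 and was not called.

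Desmosomes are the junctions that keratin filaments attach to, and 11 of 13 listed desmosome and linker genes were tested. At gd18 against gd12, 4 were called higher and 2 lower, where 11.6% of genes were called higher and 9.12% lower, with a median log2 change of -0.07. Perp, a p63 target that builds desmosomes, was at 294, 314 and 284 at gd18, against 91.0, 37.2 and 90.5 at gd12, and was called (limma adjusted p = 0.00085). Dsc3, a desmosomal cadherin of basal layers, was called too, at 141, 69.9 and 62.8 at gd18, against 6.24, 2.07 and 6.79 at gd12. Both passed the filter only through later stages, with all gd12 arrays below the array median, and Dsc3 passed on 4 arrays, the 3 of gd16 and 1 of gd18. Jup (plakoglobin) was called lower, with gd18 below the array medians, and Pkp2, the plakophilin of simple epithelium and heart, fell by 1.44.

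At pnd2 against gd12, 5 desmosome genes were called higher and none lower in limma (1 lower at an unadjusted p under 0.05), where 13.5% of genes were called higher and 11.6% lower, and without pnd2 replicate 3 the counts were 5 and 2. Perp was at 390, 347 and 774 at pnd2, and Dsc3 was at 59.6, 53.4 and 37.3, below the array medians. Hemidesmosomes tie basal cells to the basement membrane, and 6 of 11 listed genes were tested. None was called higher at gd14, gd18 or pnd2 against gd12 (limma, and 0 higher at an unadjusted p under 0.05). Genes called higher made up 6.01%, 11.6% and 13.5% of all in these comparisons. At gd14 against gd12 Cd151 was called lower (-0.56, limma adjusted p = 0.013), where 4.95% of genes were. Without pnd2 replicate 3, 2 hemidesmosome genes were called lower at gd14 against gd12. At gd18 against gd12, 2 were called lower, where 9.12% of genes were. These were Itga6, which fell by 1.15 on the log2 scale (limma adjusted p = 0.042), and Cd151, which fell by 0.40 (adjusted p = 0.047), with the calls lost in 10 and 14 of the 15 fits that left out 1 array.

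Basal epithelium regulators gave 8 tested genes of 15 listed. At gd18 against gd12, 1 was called higher and 1 lower in limma (5 and 1 at an unadjusted p under 0.05). Of all genes, 11.6% were called higher and 9.12% lower there. The median log2 change of the list was 0.83, against 0.01 for all genes. Without pnd2 replicate 3, 5 were called higher and 1 lower in this comparison. At pnd2 against gd12, 3 were called higher and 1 lower, where 13.5% of genes were called higher and 11.6% lower. The median log2 change was -0.02, against -0.07 for all genes, and 0.35 without pnd2 replicate 3. Those higher were Perp, Tfap2a (AP-2 alpha, a regulator of epidermal genes) with a log2 change of 2.18 ± 0.37, and Ripk4 (a kinase needed for epidermal differentiation) with 2.07 ± 0.33. Tfap2c, which is also a germ cell gene, was called lower and was at 25.9, 62.5 and 50.4 at pnd2, against 1084, 1348 and 536 at gd12. It passed the filter on the 3 gd12 arrays and 1 gd14 array alone, and its pnd2 values lie below the array medians. None of the 8 was called by limma at pnd2 against gd18 (2 higher and 1 lower at an unadjusted p under 0.05; 1 called lower without pnd2 replicate 3), the comparison in which Trp63 was called, where 0.237% of genes were called higher and 0.319% lower.

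Simple epithelium genes other than keratins gave 13 tested genes of 14 listed. At gd14 against gd12, 1 was called higher and 1 lower, where 6.01% and 4.95% of genes were, with a median log2 change of 0.38 against 0.03 for all genes. Ehf, an epithelial ETS factor, was called higher, at 91.6, 87.4 and 130 at gd14, against 13.7, 5.56 and 4.03 at gd12. The gd12 values and the gd14 values of 91.6 and 87.4 lie below the array medians. Ehf passed the filter on 10 arrays, none of gd12, so its being tested is bound to its higher signal at later stages. Esrp1, an epithelial splicing factor, fell by 1.52. Epcam, the pan-epithelial adhesion molecule, was at 3173, 3173 and 3450 at gd14, against 2873, 3530 and 3005 at gd12, so its stages overlapped. Without pnd2 replicate 3, 4 of the 13 were called higher and 1 lower in this comparison.

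By gd18 against gd12, 5 of the 13 simple epithelium genes were called higher and none lower in limma (7 and 0 at an unadjusted p under 0.05), where 11.6% and 9.12% of genes were, with a median log2 change of 1.02. With pnd2 replicate 3 left out, 9 were called higher and none lower. Ehf was at 747, 712 and 719 at gd18, Ap1m2 had a log2 change of 1.72 ± 0.45 and Grhl2 of 1.40 ± 0.32. At pnd2 against gd12, 6 were called higher and none lower (8 and 0 at an unadjusted p under 0.05), where 13.5% and 11.6% of genes were, with a median of 1.12. The counts became 9 and 0 and the median 1.71 without pnd2 replicate 3. The call for Cdh1 (E-cadherin), 1 of the 6, was lost in 13 of the 15 fits that left out 1 array. Epcam was at 10246, 10275 and 6431 at pnd2, against 2873, 3530 and 3005 at gd12, a log2 change of 1.49. Over the same spans, mesenchyme and smooth muscle markers summed to 136803 to 155444 at pnd2 and to 118572 to 124538 at gd18, against 40645 to 46614 at gd12, so the stromal list too was higher than at gd12, when gonad transcripts were present. The part of the lower gonad transcripts in the keratin changes was not tested.

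The genes most like 4 of the members were found by Pearson's r of log2(signal + 16) over the 15 epididymis arrays, among 11613 other genes. These correlations are descriptions over arrays that share stages, and no test is attached. For Krt8 they were Igsf5 (r = 0.969), Dcdc2a (0.956), Arnt2 (0.950), Met (0.947) and Ifih1 (0.939), and without pnd2 replicate 3 the values were 0.972, 0.950, 0.950, 0.940 and 0.930. For Krt19 they were Rassf8 (0.971), Septin8 (0.968), Sema5a (0.960), Cbx6 (0.957) and Fkbp14 (0.957), with 0.943 to 0.963 without that array. For Trp63 they were Stard5 (0.929), Acaa1b (0.922), Gnpnat1 (0.917), Sh3gl2 (0.899) and Nr1d2 (0.895), with 0.863 to 0.904 without it.

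For Krt5 the closest genes were Tmem134 (0.902), Tjap1 (0.895), Egln2 (0.887), Snx33 (0.887) and Zdhhc5 (0.882). These values fell to between 0.608 and 0.696 without pnd2 replicate 3, so the likeness rests on that 1 array. No member keratin could be among these genes, since members were left out of the search.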

How the data were processed

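RNA of 15 epididymis samples and 1 newborn pool was measured on Affymetrix arrays. The deposited intensity values (signal, linear scale) were made by the authors with GCOS, per the submitters' processing notes; the sources used here do not give the version, the signal algorithm or detection calls. GEO's platform annotation named 34945 probe sets with 1 symbol, 932 with several, and 9160 were unnamed; 64 controls were left out. Values were used as log2(signal + 16), which understates changes of low signals. The 25981 probe sets at or above their array's median on at least 3 of 15 epididymis arrays were fitted with limma 3.58.1 (R 4.3.3, trend, 1 mean per stage, 15 arrays), with Benjamini-Hochberg adjustment over all of them and calls at adjusted p under 0.05. Gene lists used the brightest kept probe set per gene. Replicates are samples that the labels number separately, and with 3 per stage their number limits precision; no 2 arrays were identical. No batch is given in the labels. On simulated data 22% of changes of log2 1 and 65% of log2 2 were recovered for gd14 against gd12. The members, lists, alternatives and the rule for naming genes (members, list genes with the largest called changes, and the 5 genes most like each of 4 members) were chosen with earlier results of these data known. Promoters came from RefSeq GRCm38.p6.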

Additional observations from a re-analysis of the deposited data

How the results depend on the processing

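Of 1657 recomputed values of single members, 1592 stayed called or stayed not called, 54 lost the call, 11 gained one and none that was called turned its sign. Among values not called on either side, 18 changed sign. The count of called members at pnd2 against gd18, 1 (Trp63), became 0 with a constant of 1, with no filter, with only the 6 arrays compared, at an adjusted p under 0.01 and without 3 arrays that stood apart (gd16 replicate 9, gd14 replicate 10, pnd2 replicate 3). A filter on all 15 arrays left Trp63 untested, so the count of 0 in that setting could not show a lost call. Leaving out 1 array, that count ran from 0 to 1, the counts from 4 to 7 at gd14 against gd12, 6 to 7 at gd18 against gd12, 5 to 8 at pnd2 against gd12 and 5 to 8 for any stage, which was also 5 at an adjusted p under 0.01. At pnd2 the number of probe sets at least 2-fold above the pool was 0, or 1 without pnd2 replicate 3. The cause was not tested. Over all probe sets, leaving out that array raised the calls to 6190 from 2265 at gd14 against gd12, 8643 from 4295 at gd18 against gd12, 190 from 16 at gd16 against gd14 and 262 from 37 at gd18 against gd16, and leaving out single arrays moved pnd2 against gd18 from 145 to between 3 and 820. With no filter that last count was 65. Median centring moved the median of all probe sets by 0.25 at pnd2 against gd18 and by 0.15 at pnd2 against gd12, and the share of calls that were higher to 59.2% (71 calls) from 30.3% (145) and to 58.7% from 48.7%. Of members it kept all calls and added Krt19 at pnd2 against gd12 (1.27, adjusted p = 0.020). No paired analysis was possible because no replicate number is shared between stages. Probe sets below the array median, as for Krt15 and Krt17, are limited by background.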
